A study of Mus musculus with 9 samples.

Results

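Mef2a, Mef2c, Mef2d, Six4, Six5 and the genes Eya1 to Eya4 encode transcription factors and cofactors of the skeletal muscle programme. These 9 members of the Mef2, sine oculis homeobox and Eya families were the rows of the count table whose Ensembl number carries one of these symbols, out of 55471 gene numbers, and all 9 passed the filter on low counts that left 21809 genes for testing. Other genes of the 3 families were not analysed here. The RNA came from the gastrocnemius, a calf muscle, of neonatal mice at postnatal day 0 to 1 (wildtype C57BL/6, and knock-out mice from heterozygous C57BL/6JRj parents), with 1 library per mouse. Of the 9 mice, 5 were Shank3Δ11(-/-), whose Shank3 gene lacks exon 11 (KO1 to KO5), and 4 were Shank3(+/+) (WT1 to WT4). The labels name no other allele and no treatment for either genotype. The genotypes were compared in the 7 mice the study kept, KO1, KO3 and KO5 beside the 4 Shank3(+/+) mice. Values with KO2 and KO4, which the study set aside over their number of reads, are given next to the main ones. The deposited totals do not set these 2 apart as low, since the column of KO4 has the most counts of the 9 and KO5, which was kept, has fewer than KO2. The columns were matched by name alone.

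MEF2 proteins are MADS box factors that bind A and T rich sites in the promoters and enhancers of muscle genes, often beside the myogenic factors MyoD and myogenin, and they are held in check by class IIa histone deacetylases until kinases release them. Sine oculis homeobox proteins, such as those of Six4 and Six5, bind the MEF3 site but activate weakly alone. EYA proteins carry no DNA-binding domain of their own, join them on DNA as coactivators and are also phosphatases. Together with PAX factors and DACH proteins they form a network that acts upstream of Myod1 and Myog in embryonic muscle, and in grown muscle they take part in the fast fibre programme.

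The binding sites are best seen in the promoter of Myog, the gene of myogenin and a classical shared target of MEF2 and sine oculis homeobox factors. It is shown first for that reason, followed by the 3 member promoters in which a script found a MEF2 core or a MEF3 motif. Each line runs 5′ to 3′ on the strand of its gene and covers 250 bases before and 50 after the RefSeq start in build GRCm38.p6. Capitals mark the motifs.
Myog, chr1:134289754-134290053, plus strand: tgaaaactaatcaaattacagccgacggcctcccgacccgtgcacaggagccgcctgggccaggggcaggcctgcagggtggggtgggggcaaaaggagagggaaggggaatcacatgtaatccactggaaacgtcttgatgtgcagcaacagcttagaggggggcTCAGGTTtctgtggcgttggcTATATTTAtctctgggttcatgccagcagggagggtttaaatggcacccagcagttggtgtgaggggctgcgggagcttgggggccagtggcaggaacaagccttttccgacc
Mef2c, chr13:83503784-83504083, plus strand: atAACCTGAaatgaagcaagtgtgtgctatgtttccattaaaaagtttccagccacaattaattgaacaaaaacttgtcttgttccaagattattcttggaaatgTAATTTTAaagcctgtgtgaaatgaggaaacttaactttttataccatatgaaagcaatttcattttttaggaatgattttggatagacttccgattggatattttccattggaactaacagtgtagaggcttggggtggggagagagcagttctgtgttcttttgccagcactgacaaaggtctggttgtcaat
Mef2a, chr7:67372809-67373108, minus strand: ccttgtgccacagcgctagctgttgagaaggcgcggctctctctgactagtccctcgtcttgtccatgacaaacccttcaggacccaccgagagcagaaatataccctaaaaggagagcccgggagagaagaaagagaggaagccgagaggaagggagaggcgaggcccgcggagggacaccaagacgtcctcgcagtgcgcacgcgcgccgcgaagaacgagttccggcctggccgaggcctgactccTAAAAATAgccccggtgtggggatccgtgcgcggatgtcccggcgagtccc
Six4, chr12:73113196-73113495, minus strand: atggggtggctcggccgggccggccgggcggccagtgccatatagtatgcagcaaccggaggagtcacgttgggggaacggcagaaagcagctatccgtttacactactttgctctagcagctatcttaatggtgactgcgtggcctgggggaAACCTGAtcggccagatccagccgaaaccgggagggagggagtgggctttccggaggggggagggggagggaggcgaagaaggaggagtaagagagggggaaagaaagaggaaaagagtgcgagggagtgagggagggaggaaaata

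The searches covered both strands. The MEF3 motif was TCAGGTT, and the MEF2 core was TANNNNTA with every N an A or a T, a pattern that some TATA boxes also meet. With the start as base 1 and the base before it as -1, Myog held MEF3 from -84 to -78 and the MEF2 core from -63 to -56. The Mef2c window held MEF3 on the opposite strand from -248 to -242 and the MEF2 core from -145 to -138. The core of Mef2a lay on the start itself, from -1 to 7, and Six4 held MEF3 on the opposite strand from -97 to -91. MEF3 occurred in 4.07% and the MEF2 core in 9.32% of all 32851 windows of the table. RefSeq windows were found for 7 of the 9 members, 11 in all, since Mef2c has 3 windows and Six4 and Eya4 have 2 each. The E-box CANNTG, the site of MyoD and myogenin, was found in 72.3% of all windows, and at 2 places in the Mef2c window shown. A match of letters is a description of the window, not a measured binding site.

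The members lie on 8 chromosomes (build mm10, positions of GENCODE M21). Mef2a (ENSMUSG00000030557) spans chromosome 7 from 67231163 to 67372858 on the minus strand, Mef2c (ENSMUSG00000005583) chromosome 13 from 83504034 to 83667080 on the plus strand, and Mef2d (ENSMUSG00000001419) chromosome 3 from 88142372 to 88172086 on the plus strand. Six4 (ENSMUSG00000034460) lies on chromosome 12 from 73099609 to 73113456 on the minus strand and Six5 (ENSMUSG00000040841) on chromosome 7 from 19094594 to 19098549 on the plus strand. Eya1 (ENSMUSG00000025932) is on chromosome 1 from 14168954 to 14310235 on the minus strand, and Eya2 (ENSMUSG00000017897) on chromosome 2 from 165595032 to 165771727 on the plus strand. Eya3 (ENSMUSG00000028886) is on chromosome 4 from 132638987 to 132724765 on the plus strand, and Eya4 (ENSMUSG00000010461) on chromosome 10 from 23102963 to 23350786 on the minus strand. The joined exons of a member measure between 2963 bases in Eya2 and 15715 bases in Mef2c, so a count alone cannot rank the paralogs.

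Paralogs can share reads where their exons are alike. No stretch of 50 bases was shared between the transcripts of any 2 members of a family. The longest exact runs that paralogs share are printed here because they bound how far short reads could be mixed between them, with capitals left out since the whole run matters.
Six4 and Six5, 29 bases: caggtcagcaactggttcaagaaccggcg
Eya2 and Eya3, 29 bases: ggtgtggactggatgaggaaactggcctt
Mef2c and Mef2d, 28 bases: tgctcaagtacaccgagtacaacgagcc
Overlaps with other genes were larger. Exons of Mef2d share 531 bases (8.87% of its exon bases) with the antisense transcript 1700113A16Rik, and exons of Mef2a share 302 bases (2.06%) with Lysmd4 on the opposite strand. The sources used do not say how the counting treated strand. A part of the reads of Mef2d and Mef2a may belong to these neighbours. Of the stretches of 50 bases, 7.81% in Mef2d and 3.65% in Mef2a also occur in other genes. For Mef2a, genes other than Lysmd4 hold some of them. The figure was 0.486% for Six4 and 0.053% for Eya4, and the other members had none. The 9 mice together held 6062 counts of 1700113A16Rik and 4120 of Lysmd4.

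The libraries held between 26444372 counts in KO5 and 40471957 in KO4, with a median of 31435732, and the share on mitochondrial genes ranged from 3.81% to 7.88%, the highest in KO4. Expression is given as CPM, the count scaled to library size after TMM normalization, which corrects for a few abundant genes taking a large part of a library. The summed level of 6 myofibre markers, among them Acta1 and Ttn, lay between 50891 and 57907 CPM, so every library was rich in muscle fibre RNA. Xist, the RNA of the inactive X chromosome, reached 618.4 to 925.1 CPM in WT3, WT4, KO3 and KO5, and in the other mice its highest value was 3.23 CPM. Genes of the Y chromosome summed to 0.0759 to 0.423 CPM in WT3, WT4, KO3 and KO5 and to 189.9 to 247.8 CPM in the others. These are the patterns of females and of males, though the labels do not give the sex. In this bulk tissue, fewer cells of a type and less RNA per cell cannot be told apart. The whole-gene count of Shank3 takes in reads outside exon 11 and does not check the deletion.

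Mef2c gave the largest number of reads of any member. It had 805.6 CPM in KO1, 767.2 in KO2, 622.7 in KO3, 650.9 in KO4 and 702.4 in KO5, against 733.0 in WT1, 811.7 in WT2, 717.9 in WT3 and 573.8 in WT4. The highest and the lowest mouse were both Shank3(+/+), and the genotypes overlapped throughout. With 17648 to 27485 counts per library, Mef2c stood at percentile 99.5 of all genes tested by level in CPM.

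Mef2d, the paralog whose muscle-specific splice form escapes repression in differentiated fibres, had 228.4, 262.1, 177.9, 148.4 and 151.3 CPM in KO1 to KO5 and 210.2, 184.6, 204.6 and 184.4 CPM in WT1 to WT4. The Shank3Δ11(-/-) mice lay on both sides of the Shank3(+/+) range, with KO1 and KO2 above it and KO3, KO4 and KO5 below it. Mef2a, a widely expressed paralog, had 177.6, 177.9, 148.5, 133.7 and 153.0 CPM in KO1 to KO5 and 173.6, 164.2, 179.0 and 134.3 CPM in WT1 to WT4. KO4 and WT4 were the lowest mice, and hardly differed.

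Six5, a gene that neighbours the repeat of myotonic dystrophy in human, was the steadiest member. It had 19.1, 21.5, 19.6, 18.0 and 18.7 CPM in KO1 to KO5 and 18.5, 19.2, 19.2 and 20.2 CPM in WT1 to WT4. The highest mouse was 1.19 times the lowest, and both were Shank3Δ11(-/-) mice the study left out, KO2 and KO4. Six4, which binds MEF3 sites of muscle genes, had 12.02, 14.3, 9.03, 10.1 and 11.0 CPM in KO1 to KO5 and 13.3, 11.8, 11.3 and 9.69 CPM in WT1 to WT4. KO2 was again highest and KO3 lowest, with the Shank3(+/+) mice between them.

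Eya4 was the Eya gene with the most reads, at 70.4, 70.1, 52.6, 48.8 and 56.5 CPM in KO1 to KO5 and 62.6, 62.8, 60.2 and 46.2 CPM in WT1 to WT4. KO1 and KO2 exceeded every Shank3(+/+) mouse, while WT4 was the lowest of all. Eya3, the most widely expressed of the family, ranged from 20.4 to 29.2 CPM in Shank3Δ11(-/-) and from 23.2 to 29.2 CPM in Shank3(+/+). Eya1, a coactivator in muscle precursors, ranged from 7.70 CPM in KO5 to 11.9 CPM in WT1, on 203 to 394 counts per library, the fewest of the members.

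Eya2, the other Eya gene known from fetal muscle precursors, varied most. It had 7.95, 12.9, 12.8, 12.7 and 9.33 CPM in KO1 to KO5 and 15.2, 16.9, 10.9 and 10.2 CPM in WT1 to WT4. All 5 Shank3Δ11(-/-) mice lay below the Shank3(+/+) mean of 13.3 CPM, and KO1 and KO5 lay below every Shank3(+/+) mouse. WT3 and WT4, however, were below KO2, KO3 and KO4, so the genotypes overlapped.

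**Figure D1:**
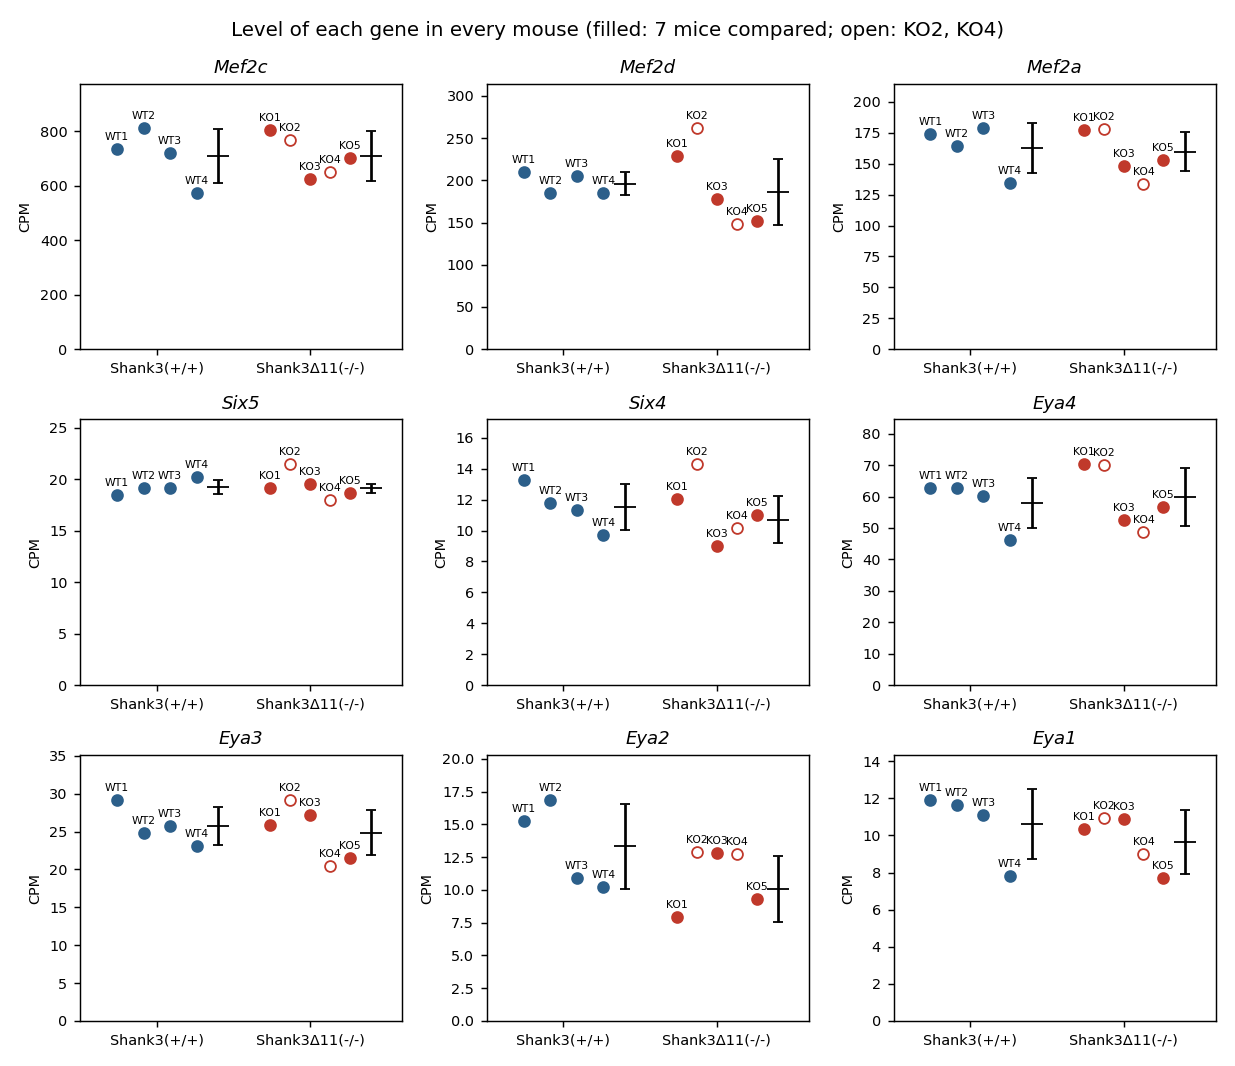
Level of the 9 members in CPM (linear axes from 0) in each Shank3(+/+) mouse (blue) and each Shank3Δ11(-/-) mouse (red). Open circles are KO2 and KO4, and bars give the mean ± SD of WT1 to WT4 (n = 4) and of KO1, KO3 and KO5 (n = 3). The genotypes overlap in every panel, and Eya2 shows KO1 at 7.95 and KO5 at 9.33 CPM under the lowest Shank3(+/+) mouse at 10.2 CPM.

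Levels of different genes were compared per kilobase of joined exon length, in CPM per kb. On this scale Mef2c led with 45.1 ± 5.18 (SD, n = 9), followed by Mef2d with 32.5 ± 6.06 and Mef2a with 10.9 ± 1.26. The ranges of Mef2c and Mef2d over mice overlapped, yet Mef2c was above Mef2d within each of the 9 mice. Six5 at 6.43 ± 0.343 and Eya4 at 6.26 ± 0.918 came next and could not be ordered on this scale, as Six5 was above Eya4 in 4 of the 9 mice. Eya3 (4.47 ± 0.550) and Eya2 (4.09 ± 0.956) overlapped as well, with Eya3 higher in 7 mice. Eya1 at 1.30 ± 0.203 and Six4 at 1.05 ± 0.156 were lowest, and Eya1 was above Six4 in 8 of the 9 mice.

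Among the paralogs examined, Mef2c, Six5 and Eya4 dominated per unit length. Mef2c made up 51.1% ± 3.33 (SD, n = 9) of the summed CPM per kb of the 3 Mef2 genes, Mef2d 36.6% ± 3.49 and Mef2a 12.3% ± 0.569. The order Mef2c, Mef2d, Mef2a held in all 9 mice. Six5 took 86.0% ± 1.68 of the sum of Six4 and Six5 and was ahead in every mouse. Eya4 took 38.9% ± 3.93, Eya3 27.8% ± 2.00, Eya2 25.3% ± 4.43 and Eya1 8.05% ± 0.566. Eya4 was first and Eya1 last among the Eya genes in all 9 mice, and Eya2 passed Eya3 in 2 of them.

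The levels and the size of the lead depended on the length used. Per kb of the longest transcript, Mef2c was at 113 and Mef2a at 28.9 CPM per kb, and Eya4 at 11.1 (8.71 to 13.3 over mice) was above Six5 at 6.43 (5.99 to 7.16) with no overlap. Eya2 (4.92) and Eya3 (4.87) also changed places. With the longest transcript in place of the joined exons, Mef2c took 63.5% of the 3 Mef2 genes, Six5 79.4% of Six4 and Six5, and Eya4 47.8% of the 4 Eya genes, and Mef2d had 20.2%. From counts alone, Mef2c took 66.7%, Six5 63.1% and Eya4 55.3%. The leading gene of each family was the same in every mouse under all 3 measures. The lower places were not, as Mef2a passed Mef2d in 1 mouse by counts, Eya1 passed Eya2 in 2 mice by counts (KO1 and WT3) and Eya2 passed Eya3 in 3 mice with the longest transcript.

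**Figure D2:**
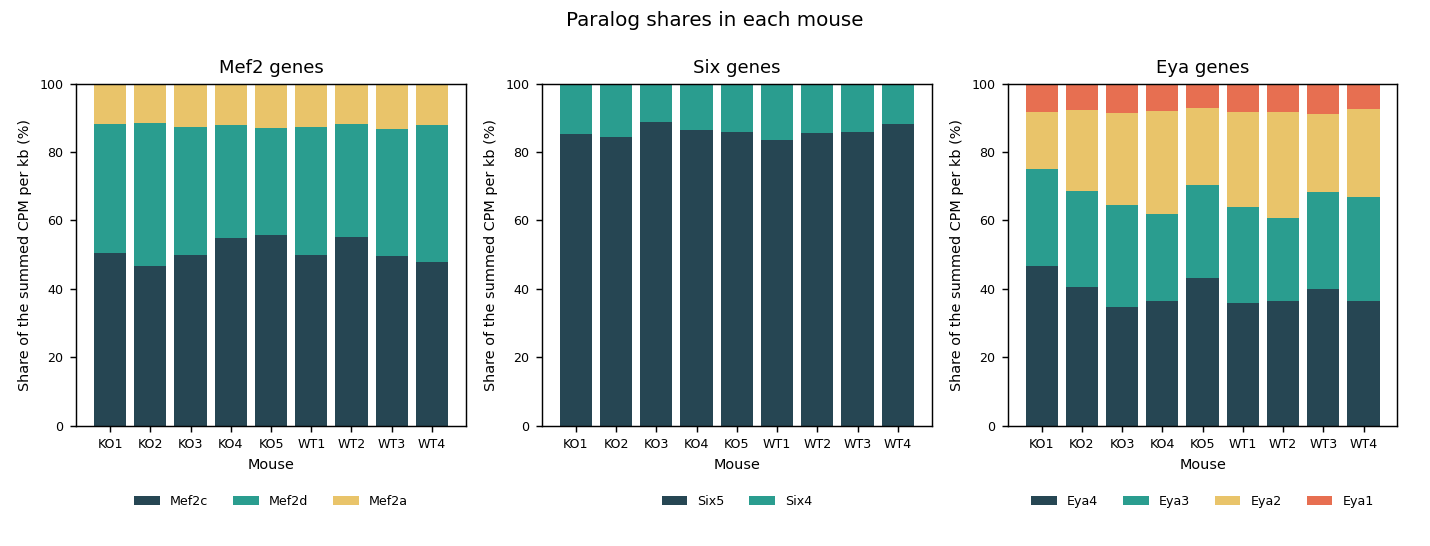
Share of each paralog in the summed CPM per kb of joined exons of the examined genes of its family (percent, stacked to 100) for each of the 9 mice. Mef2c holds between 46.6% and 55.6% of the Mef2 bars, Six5 between 83.4% and 88.7% of the bars it shares with Six4, and Eya4 its widest part of the Eya bars in KO1 at 46.5%.

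To ask whether the genotype moved the balance between paralogs, 8 shares per unit length were compared between genotypes in the 7 mice by a 2-sided exact permutation test, whose smallest possible p is 0.0286 for 3 against 4 mice. Eya2 took 22.1% ± 5.11 in the 3 Shank3Δ11(-/-) mice and 26.9% ± 3.49 in the 4 Shank3(+/+) mice (± SD), a difference of -4.84 percentage points (exact p = 0.200). Eya4 took 41.4% ± 6.10 against 37.2% ± 1.78, a difference of 4.22 points (exact p = 0.257). KO1 stood at one end of both, with 16.7% of Eya2 and 46.5% of Eya4. With KO2 and KO4 the differences were -2.89 points for Eya2 (exact p = 0.373) and 3.03 points for Eya4 (exact p = 0.302). Without KO1 they were -2.17 and 1.66 points in the 7 mice. Without KO3 they were -7.26 and 7.60 points and the genotypes did not overlap in either share (exact permutation test p = 0.133 for Eya2 and 0.0667 for Eya4, the latter the smallest that 2 against 4 mice allow). The other 6 differences, those of Mef2a, Mef2c, Mef2d, Six4, Eya1 and Eya3, ranged from -1.49 points for Mef2d to 1.40 points for Mef2c (exact p between 0.457 and 0.857), and in the 9 mice from -0.74 points for Mef2d to 0.93 points for Mef2c (exact p between 0.579 and 0.944). In the 7 mice each of these 6 changed sign when some mouse was left out. Without KO5 the Mef2c difference was -0.40 and the Mef2d difference 0.53 points. Without WT2 the Mef2c difference was 2.91 points and the genotypes did not overlap (exact p = 0.100, the smallest that 3 against 3 mice allow). In the 7 mice none of the 8 shares differed beyond the spread between mice.

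In the comparison of levels, no member was higher or lower in Shank3Δ11(-/-) beyond the spread between mice. In edgeR's quasi-likelihood test of the 7 mice, 0 of 9 members reached an unadjusted p below 0.05, beside 2.08% of all genes tested. The study's criterion, p below 0.05 with a false discovery rate (FDR) below 25%, was met by 0 members and by 0.0% of all genes. The study itself, which used limma, did report differentially expressed genes at this criterion. In the limma fits run here, 0 genes met it, and the source of this discrepancy was not tested. The mice of the 2 genotypes overlapped in CPM for every member, whereas 2.83% of all genes did not overlap. With all 9 mice, the figures were again 0 of 9 members at an unadjusted p below 0.05 (2.03% of all genes in edgeR) and 0 of 9 without overlap (0.681% of all genes). By sign alone, 8 of 9 members had a log2 fold change below 0 in the 7 mice, beside 52.2% of all genes, and 6 of 9 in the 9 mice, beside 49.5%. The median log2 fold change was -0.06 over the members and -0.01 over all genes.

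Eya2 came closest to a difference. Its mean was 10.04 ± 2.52 CPM in the 3 Shank3Δ11(-/-) mice kept and 13.3 ± 3.26 CPM in the 4 Shank3(+/+) mice (± SD). The log2 fold change was -0.41 with a standard error of 0.22 (edgeR p = 0.0851 with FDR = 1.00, exact permutation test p = 0.200). The 95% interval ran from 0.537 to 1.05 times the Shank3(+/+) level. With KO2 and KO4 the log2 fold change was -0.26 (edgeR p = 0.203, exact permutation test p = 0.270). The unadjusted p of edgeR passed below 0.05 when KO3 was left out (log2 fold change -0.63) and when WT4 was left out (-0.52), each with FDR = 1.00. It was -0.27 without KO1 and -0.28 without WT2, both with an unadjusted p above 0.05. Leaving out the remaining mice gave values from -0.34 to -0.49.

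The most abundant member, Mef2c, had means of 710.3 ± 91.7 CPM in Shank3Δ11(-/-) and 709.1 ± 99.1 CPM in Shank3(+/+) (± SD, 3 and 4 mice). Its log2 fold change was -0.01 with a standard error of 0.14 (edgeR p = 0.971, exact permutation test p = 1.00), and the 95% interval ran from 0.804 to 1.23 times the Shank3(+/+) level. Mef2d had 185.9 ± 39.2 CPM against 196.0 ± 13.4 CPM and a log2 fold change of -0.08 (edgeR p = 0.548, exact permutation test p = 0.600). Its Shank3Δ11(-/-) mice were spread more widely than the Shank3(+/+) mice. For Mef2a the means were 159.7 ± 15.7 CPM and 162.8 ± 19.97 CPM, and the log2 fold change was -0.03 (edgeR p = 0.778, exact permutation test p = 0.886).

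Six5 averaged 19.1 ± 0.431 CPM in the 3 Shank3Δ11(-/-) and 19.3 ± 0.704 CPM in the 4 Shank3(+/+) mice (± SD). Its log2 fold change was -0.02 (edgeR p = 0.855, exact permutation test p = 0.829), with a 95% interval from 0.840 to 1.16 times, the narrowest of the members. Six4 had a log2 fold change of -0.12 (edgeR p = 0.466, exact permutation test p = 0.486) and an interval from 0.729 to 1.17 times. Among the Eya genes besides Eya2, the log2 fold changes were -0.15 for Eya1 (exact permutation test p = 0.457), -0.06 for Eya3 (exact p = 0.714) and 0.04 for Eya4 (exact p = 0.829), the single member above 0. With 3 and 4 mice these intervals leave room for differences in either direction, and no limit of detection was computed. In all 9 mice the fold changes of the 8 members other than Eya2 lay between -0.12 for Eya1 and 0.04 for Eya4 on the log2 scale.

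**Figure D3:**
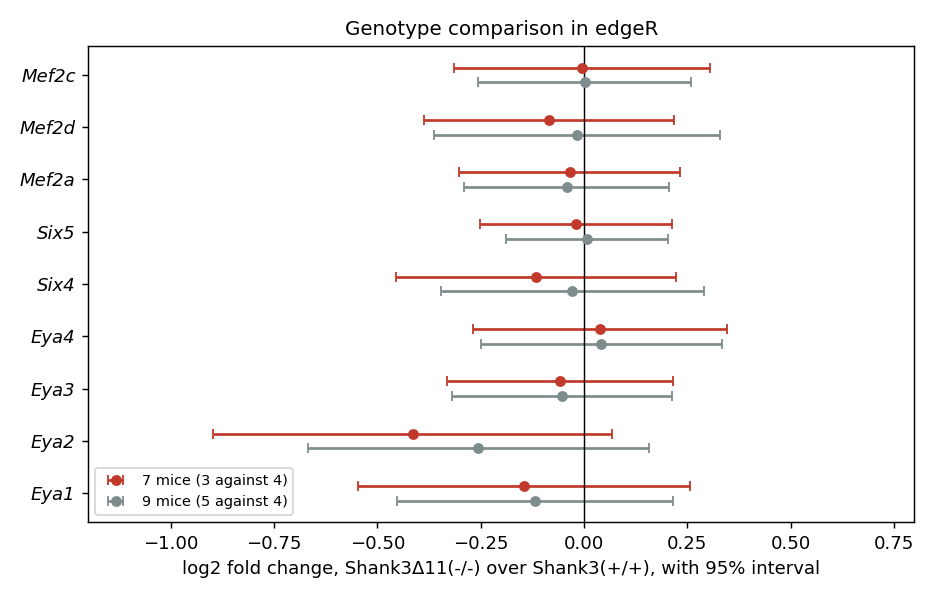
log2 fold change of each member, Shank3Δ11(-/-) over Shank3(+/+), with its 95% interval from edgeR, for the 7 mice the study kept (red, 3 against 4) and for all 9 mice (grey, 5 against 4). Every interval crosses 0, and that of Eya2 in the 7 mice is the widest and the farthest to the left.

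The members varied between mice to unlike degrees. The coefficient of variation over the 9 mice was 5.33% for Six5 and 23.4% for Eya2, and the ratio of the highest to the lowest mouse ranged from 1.19 for Six5 to 2.12 for Eya2. The variation between mice within a genotype (edgeR's biological coefficient of variation) of Six5 stood at percentile 1.09 among the 1644 genes of like level, and that of Eya2 at percentile 87.2 among 1379 genes. Compared with genes of the same abundance, Six5 was among the steadiest and Eya2 among the more variable.

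Several members were high or low in the same mice. KO2 was among the 3 highest mice for 8 of the 9 members, whereas it was among the 3 highest for 32.4% of all genes tested. KO4 was among the 3 lowest for 8 members and for 35.7% of all genes. WT4 was among the 3 lowest for 7 members (37.0% of all genes), and KO5 and KO3 for 5 each (34.0% and 31.0%). KO1 and WT1 were among the 3 highest for 5 members each (31.6% and 30.5% of all genes). On average over the 9 members, KO2 lay 0.22 above and WT4 lay 0.20 below the mean of the mice in log2 CPM, with KO4 at -0.18 and KO5 at -0.16. With library totals alone in place of TMM, KO2 was among the 3 highest for all 9 members and KO4 among the 3 lowest for 8. Eya1 was the member for which KO2 was not among the 3 highest, and Eya2 the one for which KO4 was not among the 3 lowest. WT4 was not among the 3 lowest for Mef2d and Six5.

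**Figure D4:**
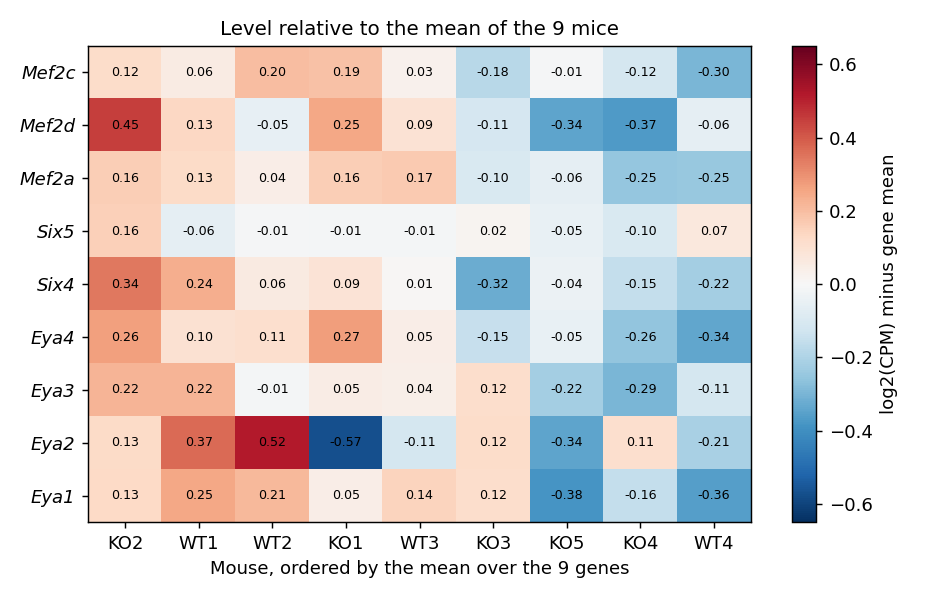
log2(CPM) of each member in each mouse minus the mean of that member over the 9 mice, with mice ordered by their average over the members. KO2 is above 0 for all 9 members, KO5 below 0 for all 9, and Eya2 departs from the order with 0.52 in WT2 and -0.57 in KO1.

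Markers of other cells also differed between these mice. KO4 had the highest summed level of 4 fibroblast markers, 21525 CPM against 10793 to 17809 CPM in Shank3(+/+), of 3 tendon markers, 634.4 CPM against 291 to 419 CPM, and of 4 cartilage and bone markers, 252 CPM against 65.6 to 94.1 CPM. It also had the lowest sum of 4 myoblast and satellite cell markers (Pax7, Myod1, Myf5 and Myog), 253 CPM against 309.8 to 425.8 CPM. Myog, described below as a target gene, made up 187 CPM of that sum in KO4. All markers of these lists had counts. KO5 stood out for 4 adipocyte markers, 283 CPM against at most 2.76 CPM in Shank3(+/+), and for 3 Schwann cell markers, 316 CPM against 85.3 to 115.6 CPM. KO1, where Eya2 was lowest, had 25.8 CPM of adipocyte markers and 3363 CPM of 3 red blood cell markers against 840 to 1135 CPM. The part of these differences in the levels of the members was not tested.

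The 4 mice with high Xist, and few reads of Y chromosome genes, were on both sides of the genotype. Genotypes were therefore also compared within each Xist class. Among the 7 mice the classes were not balanced, with KO3 and KO5 but not KO1 high, beside WT3 and WT4 but not WT1 and WT2. In the class with low Xist (KO1, KO2 and KO4 against WT1 and WT2) the difference in mean log2 CPM of Eya2 was -0.55, and in the class with high Xist (KO3 and KO5 against WT3 and WT4) it was 0.05. An edgeR interaction term for this contrast of Eya2 was 0.59 (FDR = 0.98) and had the lowest unadjusted p of the 9 members, which was above 0.05. Mef2d differed by 0.07 and -0.24 in the same classes (interaction FDR = 0.98 in edgeR). Eya1 differed by -0.22 with low and -0.03 with high Xist (interaction FDR = 0.98 in edgeR), and Mef2c by -0.06 and 0.04. With low Xist, every Shank3Δ11(-/-) mouse was below both Shank3(+/+) mice for Eya1 (9.01 to 11.0 against 11.6 and 11.9 CPM) and for Eya2, a separation that 7.15% of all genes had in that direction and 14.5% in either. With high Xist, the same held for Mef2d, beside 15.9% of all genes in that direction and 33.8% in either. The values of the members overlapped between Xist classes for every member, where 2.36% of all genes did not overlap.

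Some genes followed a member closely from mouse to mouse. The measure was Pearson's r of log2 CPM over the 9 mice, which share one normalization, among 13233 genes with a mean of at least 5 CPM, and it is given as a description. Mef2a was followed by Caprin1 (r = 0.987) and Epm2aip1 (0.985), and Mef2c by Arl6ip6 (0.982) and Rpgr (0.972). Rptor (0.981) and Ube4b (0.977) were most like Mef2d, and Cdc42bpa (0.966) and Macf1 (0.965) most like Six4. For the Eya genes the closest were Brwd1 (0.948) and Stk26 (0.938) for Eya1, and Hexdc (0.916) and Pcgf2 (0.901) for Eya2. Reps2 (0.948) and Tmem164 (0.938) were closest to Eya3, and Otud4 and Atp2c1 (0.986 each) to Eya4. Six5, with the least variation to follow, had Gm9144 (0.949) and Exoc7 (0.931).

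None of the listed regulators that act with MEF2 passed the test. The list held 20 genes, among them the class IIa deacetylases Hdac4, Hdac5, Hdac7 and Hdac9 that repress MEF2, the kinases that release it and the coactivators Mamstr and Vgll2, and all 20 were tested. In the 7 mice 5 had higher and 15 lower values in Shank3Δ11(-/-), around a median of -0.04 (log2) beside -0.01 over all genes, and edgeR gave 0 of the 20 an unadjusted p below 0.05, beside 2.08% of all genes. Of all genes 52.2% had lower values. In the 9 mice 7 had higher and 13 lower values, beside 49.5% lower over all genes. Tead1, a TEA domain factor and the most abundant of the list at a mean of 175 CPM, had a log2 fold change of -0.04. Of 5 partners of the sine oculis homeobox and EYA proteins, 4 were tested, 2 with higher and 2 with lower values, and edgeR gave 0 of the 4 an unadjusted p below 0.05, again beside 2.08% of all genes. Pax3, a factor of the embryonic myotome, was below the filter at 0.237 CPM on average, and Sobp, the sine oculis binding protein, was the most abundant at 39.3 CPM.

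Among target genes, MEF2 targets were spread evenly about 0. Of 19 genes, such as the creatine kinase Ckm and the intermediate filament gene Des, 9 had higher and 10 lower values in the 7 mice. Their median was -0.02 (log2), and edgeR gave 0 of the 19 an unadjusted p below 0.05, beside 2.08% of all genes. The most abundant, the noncoding RNA Meg3, had a mean of 8615 CPM and a log2 fold change of 0.06. Myog (ENSMUSG00000026459, chromosome 1 from 134289989 to 134292548, plus strand), whose promoter is shown above, had 257, 261, 225, 187 and 204 CPM in KO1 to KO5 and 239, 302, 222 and 288 CPM in WT1 to WT4. All 5 Shank3Δ11(-/-) mice lay below the Shank3(+/+) mean and the genotypes overlapped, with a log2 fold change of -0.21 in the 7 mice (edgeR p = 0.154, exact permutation test p = 0.257) and -0.21 in all 9 (exact p = 0.175).

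Of 12 target genes of the sine oculis homeobox and EYA proteins, 11 were tested, 5 with higher and 6 with lower values around a median of -0.05 (log2). Tnnt3, the fast troponin T gene, was the most abundant at 6348 CPM. In edgeR 1 higher and 2 lower genes had an unadjusted p below 0.05, beside 1.16% and 0.917% of all genes, and 0 passed the FDR. Pvalb, the calcium buffer parvalbumin of fast fibres, had 25.3, 25.9, 47.7, 119 and 103 CPM in KO1 to KO5 and 15.6, 22.9, 32.8 and 28.1 CPM in WT1 to WT4. KO3, KO4 and KO5 were above every Shank3(+/+) mouse, and KO1 and KO2 were within their range. The log2 fold change was 1.23 in the 7 mice (edgeR p = 0.0331 with FDR = 1.00, exact permutation test p = 0.114) and 1.37 in the 9 mice (edgeR p = 0.0273, exact p = 0.111), and without KO5 it was 0.54. The unadjusted edgeR p was above 0.05 without KO5 and also without any one of KO3, WT1, WT2 and WT4.

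Myod1, the myogenic factor of activated myoblasts, had 52.1, 83.5, 48.7, 35.5 and 38.6 CPM in KO1 to KO5 and 57.1, 68.1, 54.4 and 65.4 CPM in WT1 to WT4. KO1, KO3, KO4 and KO5 lay below every Shank3(+/+) mouse and KO2 above all of them. Myod1 is also one of the 4 myoblast and satellite cell markers, with Pax7, Myf5 and Myog. Their sum was 253 CPM in KO4 and 282 CPM in KO5, below the Shank3(+/+) range of 309.8 to 425.8 CPM. In KO1, KO2 and KO3 it was 312 to 399 CPM. Myog alone gave 187 CPM in KO4 and 204 CPM in KO5, so the sum mostly follows Myog, itself a target gene. The part of that cell type in the values of Myod1 was not tested. The log2 fold change was -0.41 in the 7 mice (edgeR p = 0.0109 with FDR = 1.00, exact permutation test p = 0.0286, the smallest it can give) and -0.25 in the 9 mice (exact p = 0.278). Without KO5 it was -0.29, with an unadjusted edgeR p above 0.05. Igfbp5, a binding protein of insulin-like growth factors, had 610, 736, 634, 773 and 567.8 CPM in KO1 to KO5 and 756, 721, 795 and 648 CPM in WT1 to WT4. Its log2 fold change was -0.28 in the 7 mice (edgeR p = 0.028 with FDR = 1.00, exact permutation test p = 0.0571) and -0.14 in the 9 mice (exact p = 0.230), in which KO2 and KO4 were within the Shank3(+/+) range. The unadjusted edgeR p was above 0.05 without any one of KO1, KO5, WT1 and WT3.

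**Figure D5:**
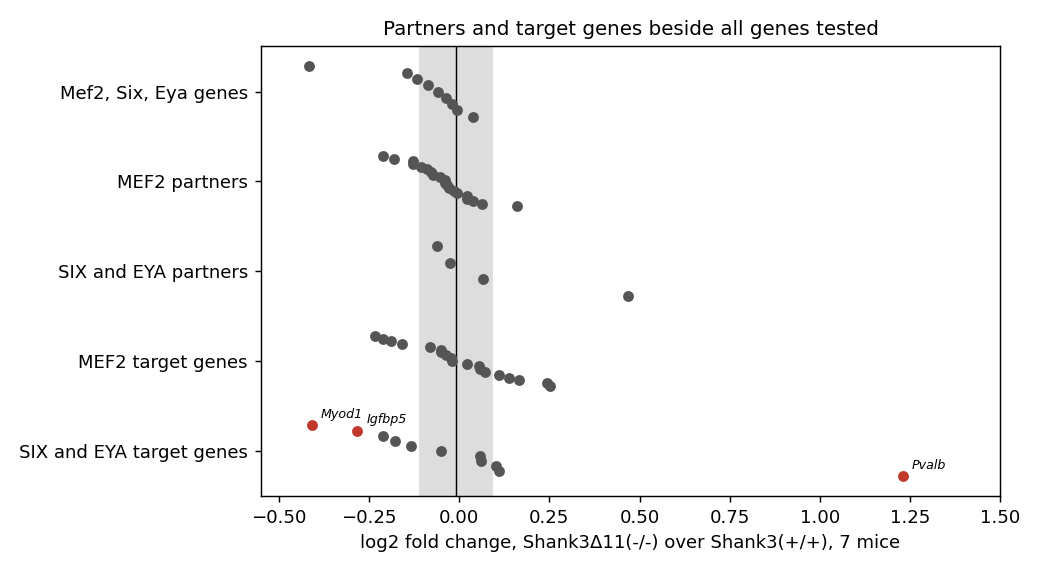
log2 fold change, Shank3Δ11(-/-) over Shank3(+/+) in the 7 mice, of the members, their partners and their target genes, 1 point per gene. The line is the median and the grey band the middle 50% of all genes tested, and red points have an unadjusted edgeR p below 0.05. The red points are Pvalb at 1.23, Myod1 at -0.41 and Igfbp5 at -0.28, all in the lowest row, the targets of the sine oculis homeobox and EYA proteins.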

How the data were processed

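Counts were used as deposited. The authors mapped the reads to mm10 with HISAT2, kept concordant pairs and counted reads per Ensembl gene with featureCounts, without normalization. Which annotation, strand setting and rule for multiply mapped reads they used is not given in the sources used here. Of 55471 gene numbers, 55144 had a symbol and 55230 a GENCODE M21 position. Genes were filtered with filterByExpr (minimum count 10, minimum total count 15) and tested with edgeR 4.0.16 in R 4.3.3 (TMM, robust quasi-likelihood test, 2-sided, Benjamini-Hochberg adjustment over all 21809 genes, or 21735 for 9 mice). The study used limma, which is an alternative here (3.58.1), as are DESeq2 1.42.0, no filter, 10 counts in every mouse, other normalizations, a replicate block, a term for the Xist class and each mouse left out. Likeness used log2 CPM with a prior count of 2. The genes named were the 9 members, Myog, of each list the most abundant gene and up to 3 per direction with p below 0.05, and the 2 genes most like each member. Examples that say what a list holds (Hdac4, Hdac5, Hdac7, Hdac9, Mamstr, Vgll2, Ckm and Des), Pax3, Shank3 and marker genes are named without a test. The members and lists, written from general knowledge, were chosen with earlier results of these data known. Each mouse is 1 animal. Promoters came from RefSeq (GRCm38.p6). Scripts were tested on simulated data.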

Additional observations from a re-analysis of the deposited data

Results flagged for a closer look

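Among 34 groups of 4 or more mice that were examined for a single mouse far from the others, 2 stood out, both in Shank3(+/+) and both of Eya4, where chance gives about 1 in 20 groups. Eya4 had 46.17 CPM in WT4, while WT1, WT2 and WT3 lay between 60.2 and 62.8 CPM. The share of Eya4 in the Eya genes per unit length was 39.83% in WT3, while the other Shank3(+/+) mice lay between 35.9% and 36.5%.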

How the results depend on the processing

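No member was called in any of the 21 alternatives, which include 7 with a mouse left out. The signs of fold changes near 0 did depend on the choice. With all 9 mice the log2 fold change was 0.0014 for Mef2c and 0.0078 for Six5. The term for the Xist class gave 0.0368 for Mef2c in the 7 mice and 0.0092 for Six5 in the 9 mice. Six4, Eya1 and Eya2 were below 0 in all alternatives, though the first pair came close to 0.

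Leaving out 1 mouse moved the log2 fold change of Mef2a between -0.116 and 0.021, Mef2c between -0.103 and 0.0807, Mef2d between -0.258 and 0.0405, Six4 between -0.208 and -0.0079, Six5 between -0.0361 and 0.0094, Eya1 between -0.262 and -0.0109, Eya2 between -0.63 (without KO3) and -0.27 (without KO1), Eya3 between -0.127 and 0.0318 and Eya4 between -0.0923 and 0.124. The number of members with an unadjusted p below 0.05 was then 0 to 1. Over all genes, calls were 0 in the comparison as reported, 1 without the filter, 6 in DESeq2, 1 with the Xist term in the 7 mice and 0 to 15 with a mouse left out (15 without KO1). Genes with an unadjusted p below 0.05 numbered 453, 972 without the filter and 224 (without KO5) to 968 (without KO1) with a mouse left out.

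The labels do not say that replicate numbers pair the mice, so they were not taken as pairs. Same-numbered mice correlated at r = 0.373, 0.052, 0.357 and 0.101, which does not settle whether they were pairs. KO1, KO3 and KO4 correlated best with the Shank3(+/+) mouse of their own number, and KO2 with WT1 (r = 0.269). With the replicate number as a block, 9 genes were called and 844 had p below 0.05 in the 7 mice, and 2 were called in the 9 mice. In the block fit of the 7 mice the log2 fold change was 0.0334 for Six5, -0.015 for Eya4 and 0.0557 for Myog, Myod1 moved from -0.41 to -0.15 with an unadjusted p above 0.05, and Pvalb moved from 1.23 to 0.61 with p below 0.05. In the block fit of the 9 mice the value was 0.0079 for Mef2c, 0.0271 for Mef2d and 0.0182 for Six5.

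The share difference of Mef2a was -0.19 points with 9 mice, -0.057 with the longest transcript and -0.078 from counts, and that of Eya3 -0.259 from counts. Mean shares moved with the length to 63.5% and 66.7% for Mef2c, 79.4% and 63.1% for Six5 and 47.8% and 55.3% for Eya4. The cause was not tested. Counting error was largest for Eya1, with a coefficient of variation of at most 7.02%.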
